A study of Mus musculus with 8 samples.

Results

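The GFP- cells of the hematopoietic clusters of mouse embryos were set against the 3 other cell groups sorted from the same embryos. The members described here are the genes for which both arrays of GFP- cluster cells lay above, or both lay below, all 6 arrays of the other groups. Of 31823 genes on the array, 1861 lay above and 748 lay below. Among the 19501 genes tested, meaning those whose signal on both arrays of 1 group or more was well above background, 1521 lay above (7.80%) and 713 lay below (3.66%).

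The 4 groups came from 100 pooled Tg(Ly6a-GFP) embryos at E10.5, in which the promoter of the stem cell antigen gene Ly6a drives green fluorescent protein (GFP); their mothers were C57BL/6 x 129S1/SVImJ F1 females and the transgene came from the fathers. The dissected tissue, A+U+V in the labels, was the aorta-gonad-mesonephros (AGM) region with the large arteries of the umbilical cord and yolk sac (umbilical and vitelline). Hematopoietic_GFP- (130000 cells) and Hematopoietic_GFP+ (30000 cells) were cluster cells sorted as CD31+ VEC+ ESAM+ Kit+, and Endothelial_GFP- (300000 cells) and Endothelial_GFP+ (70000 cells) were sorted with the same markers as Kit-. All 4 groups carry the transgene and the same genetic background; the labels give the sex as male, although the embryos were pooled. The RNA of each group was divided into 2 fractions, amplified and hybridised to one-colour arrays, so each group has 2 arrays. The 2 arrays of a group are therefore divided RNA of 1 sorted pool, and every p-value measures only the technical spread between them, not variation between litters or sorts. In such bulk RNA, fewer cells of a type and less RNA per cell cannot be told apart.

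Hematopoietic clusters are groups of round cells that bud from the inner wall of the large embryonic arteries, where hematopoietic stem cells arise from endothelium. At this stage red cells formed in the yolk sac also circulate through the same vessels. A red cell precursor switches on globin genes, the enzymes of heme synthesis and iron uptake, and rebuilds its membrane around spectrin, ankyrin and the anion exchanger, under the transcription factors Gata1 and Klf1 and the receptor for erythropoietin. Arterial endothelium is set apart from venous endothelium by Notch signalling and by the gap junction proteins that couple its cells.

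All levels are log2 signals relative to the 75th percentile of their own array, and differences are on that log2 scale, so a difference of 1 is a doubling. Well above background were 55.4% to 64.5% of the spots of an array, and no spot was saturated. The median absolute difference between the arrays of a group was 0.079 for GFP- cluster cells, 0.096 for GFP+ cluster cells, 0.082 for GFP- endothelial cells and 0.080 for GFP+ endothelial cells. Differences were tested with limma in 1 fit over the 8 arrays, and a gene is called where its adjusted p (Benjamini-Hochberg) is under 0.05. Kit and Ly6a went in the direction of the Kit and GFP gates. Kit, the receptor of the gate, read 1.94 and 2.02 on the GFP- cluster arrays, 2.87 and 2.87 on the GFP+ cluster arrays, 1.33 and 1.35 on the GFP- endothelial arrays and 1.28 and 1.36 on the GFP+ endothelial arrays. GFP- cluster cells thus lay between the GFP+ cluster cells and both endothelial groups. Ly6a read -3.95 and -3.87 on the GFP- cluster arrays, -0.48 and -0.57 on the GFP+ cluster arrays, -3.40 and -3.95 on the GFP- endothelial arrays and 0.37 and 0.42 on the GFP+ endothelial arrays. It was low in both GFP- groups. The endothelial sort gene Cdh5, which encodes VE-cadherin, was at 4.16 and 4.11 in GFP- cluster cells, and no array of any group was under 3.67. Pecam1, which encodes CD31, and Esam were called lower in GFP- cluster cells than in both endothelial groups. The differences from GFP- and GFP+ endothelial cells were -0.32 and -0.70 for Pecam1 and -0.28 and -0.26 for Esam.

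Against all 3 groups at once, 372 genes were called higher in GFP- cluster cells (1.91% of those tested) and 179 were called lower (0.918%). All 372 and all 179 also lay outside the range of the 6 other arrays. The median difference from the mean of the other groups was 0.69 over the genes called higher and -0.64 over the genes called lower. Pairwise, 21.0% of tested genes were called higher and 11.8% lower than in GFP+ cluster cells. Against GFP- endothelial cells the shares were 11.9% higher and 12.5% lower, and against GFP+ endothelial cells 31.4% higher and 15.7% lower. The 3 pairwise comparisons share the GFP- cluster arrays. Their shares over all tested genes are the base for the pairwise counts of each list below. Of the called genes 66.7% were higher against GFP+ endothelial cells, but 51.4% with quantile normalization and 51.4% in the authors' deposited table. The number called against all 3 groups depended on the background correction: 5 higher and 0 lower with normexp, and 182 and 105 once 2 spots of high local background were left out, a setting chosen after seeing the data. With normexp 1 array, replicate 2 of the GFP- endothelial cells, had a median log2 signal of -1.01, against -2.99 to -2.69 on the others. Without a filter on dim probes the genes called against all groups numbered 149 higher and 62 lower, and with either GFP- cluster array left out they numbered 160 to 169 higher and 80 to 83 lower. Leaving out replicate 1 of the GFP- endothelial arrays gave 203 and 96, and leaving out replicate 2 of them gave 212 and 93. Within slides, which the replicate numbers mark, 2288 genes lay above and 946 below the other 3 arrays of the same slide on both slides.

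Genes of the red cell membrane were among those with the widest gap between GFP- cluster cells and every other array. Slc4a1 encodes the anion exchanger band 3, the main transport protein of that membrane (probe on chromosome 11, 102210256 to 102210315, mm9). It read 3.97 and 3.96 on the GFP- cluster arrays, -0.19 and -0.18 on the GFP+ cluster arrays, 2.03 and 1.89 on the GFP- endothelial arrays and -0.85 and -0.83 on the GFP+ endothelial arrays. The lower GFP- cluster array thus lay 1.93 above the highest other array, which was a GFP- endothelial one, and the GFP+ endothelial arrays were lowest. The difference was 4.15 ± 0.057 (log2 ± SE) from GFP+ cluster cells (adjusted p = 5.77e-06), 2.00 ± 0.057 from GFP- endothelial cells (adjusted p = 6.48e-05) and 4.80 ± 0.057 from GFP+ endothelial cells (adjusted p = 3.32e-06).

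Kel, the gene of the Kell blood group peptidase (probe on chromosome 6, 41636474 to 41636533), showed the same order. It read 1.37 and 1.34 on the GFP- cluster arrays, -2.77 and -2.48 on the GFP+ cluster arrays, -0.99 and -1.02 on the GFP- endothelial arrays and -3.41 and -3.39 on the GFP+ endothelial arrays. No group overlapped another, and the difference from the mean of the other groups was 3.70 ± 0.077 (adjusted p = 1.12e-05). Abcg4, a sterol transporter gene of the ABC family, was the third marker given for these cells and read -0.36 and -0.35 on the GFP- cluster arrays, -3.76 and -3.75 on the GFP+ cluster arrays, -2.25 and -2.35 on the GFP- endothelial arrays and -3.87 and -4.00 on the GFP+ endothelial arrays. There too the GFP- endothelial arrays came next and the GFP+ endothelial arrays were lowest, and GFP- cluster cells were above the mean of the other groups by 2.97 ± 0.051 (adjusted p = 6.89e-06).

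Of the 22 red cell membrane genes on the array, 21 were tested. Of these, 15 lay above all other arrays (71.4%, against 7.80% of tested genes). None lay below and 14 were called higher than all 3 groups. The list's median difference was 2.78 from GFP+ cluster cells, 1.38 from GFP- endothelial cells and 3.25 from GFP+ endothelial cells. The medians over all tested genes were 0.076, 0.0041 and 0.12. With normexp without spots of high local background the list's medians were 1.60, 0.89 and 1.54 in the same order. Ank1 encodes ankyrin, which ties the spectrin skeleton to band 3, and read -1.32 and -1.34 on the GFP- cluster arrays, -6.91 and -6.75 on the GFP+ cluster arrays, -3.43 and -3.57 on the GFP- endothelial arrays and -6.55 and -5.89 on the GFP+ endothelial arrays. It was not well above background in either GFP+ group, so only bounds hold there: at least 10.3-fold higher than in GFP+ cluster cells and at least 19.4-fold higher than in GFP+ endothelial cells. Rhag, the glycoprotein of the Rh complex, read -1.57 and -1.49 on the GFP- cluster arrays, -5.41 and -5.99 on the GFP+ cluster arrays, -3.66 and -3.52 on the GFP- endothelial arrays and -5.58 and -4.85 on the GFP+ endothelial arrays. It was at least 8.94-fold higher than in GFP+ cluster cells, where it was not well above background. The glycerol and water channel gene Aqp3 read 0.25 and 0.15 on the GFP- cluster arrays, -4.25 and -4.59 on the GFP+ cluster arrays, -1.63 and -1.57 on the GFP- endothelial arrays and -5.06 and -5.86 on the GFP+ endothelial arrays. It was at least 24.6-fold higher than in GFP+ cluster cells on the same grounds. The exceptions within the list were Aqp1, the water channel of red cells and endothelium, which was called lower than in both GFP+ groups (-1.37 and -1.61), and Cd59a, called lower than in GFP+ endothelial cells (-0.85). Only probes well above background on all 8 arrays reduced the list to 7 genes above all other arrays.

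**Figure D1:**
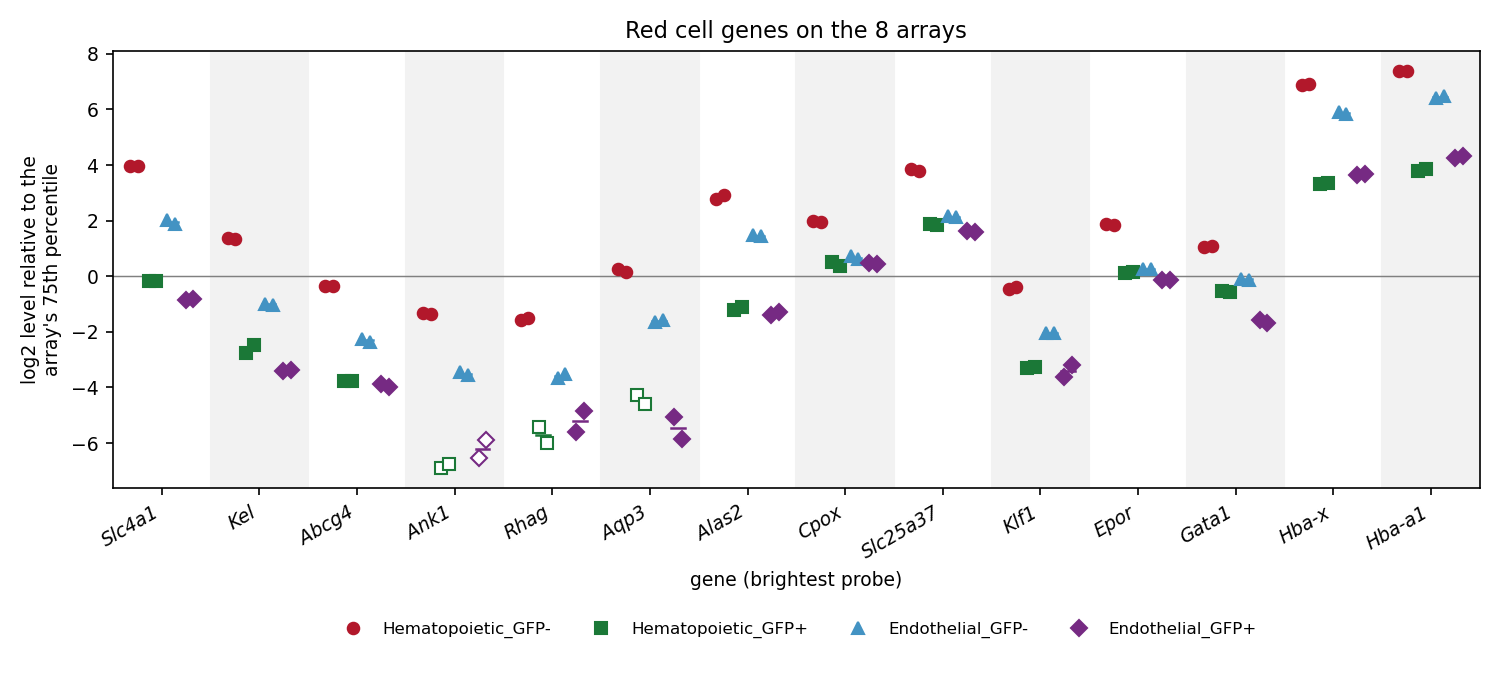
Level on the log2 scale, relative to the 75th percentile of the array (vertical axis), of 14 red cell genes on the 8 arrays, with 1 point per array, a line at each group mean and open symbols where neither array of a group was well above background. For every gene shown, both Hematopoietic_GFP- arrays lie above all 6 others, and the Endothelial_GFP- arrays come next.

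The globin genes, whose proteins carry oxygen as part of hemoglobin, were higher as well. All 10 on the array were tested. Of these, 9 lay above all other arrays (90%, against 7.80% of tested genes) and 7 were called higher than all 3 groups. Hba-x, the embryonic zeta-like alpha chain, read 6.88 and 6.93 on the GFP- cluster arrays, 3.31 and 3.36 on the GFP+ cluster arrays, 5.92 and 5.83 on the GFP- endothelial arrays and 3.63 and 3.67 on the GFP+ endothelial arrays. It was higher by 3.57 ± 0.054 than in GFP+ cluster cells, and by 1.03 ± 0.054 than in GFP- endothelial cells (adjusted p = 0.000372). The alpha globin gene Hba-a1 read 7.39 and 7.40 on the GFP- cluster arrays, 3.78 and 3.85 on the GFP+ cluster arrays, 6.42 and 6.49 on the GFP- endothelial arrays and 4.25 and 4.33 on the GFP+ endothelial arrays. Alpha globins Hba-a1 and Hba-a2 are near-identical copies, as are adult beta globins, so their probes may share RNA. The one globin gene that did not lie above, Hbq1a, was well above background on both arrays in GFP- cluster cells alone (-4.56 and -4.37), with -5.17 and -4.52 in GFP- endothelial cells. Summed over the 10 globin probes, the linear signal was 1480 and 1484 times the array's 75th percentile in GFP- cluster cells. It was 214 and 217 times on the GFP+ cluster arrays, 1045 and 1053 times on the GFP- endothelial arrays and 228 and 238 times on the GFP+ endothelial arrays. Globin RNA was thus not confined to the cluster gate, and the part of red cells or their RNA in these levels was not tested.

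Genes of heme synthesis followed: 11 of 17 lay above all other arrays (64.7%, against 7.80% of tested genes). None lay below and 9 were called higher than all 3 groups. Alas2 encodes the enzyme of the initial step of heme synthesis in red cells and read 2.78 and 2.93 on the GFP- cluster arrays, -1.22 and -1.095 on the GFP+ cluster arrays, 1.49 and 1.44 on the GFP- endothelial arrays and -1.38 and -1.30 on the GFP+ endothelial arrays. Its difference was 4.01 ± 0.076 from GFP+ cluster cells and 1.39 ± 0.076 from GFP- endothelial cells. Cpox, a later enzyme of the same path, read 1.97 and 1.94 on the GFP- cluster arrays, 0.52 and 0.38 on the GFP+ cluster arrays, 0.72 and 0.61 on the GFP- endothelial arrays and 0.48 and 0.43 on the GFP+ endothelial arrays. Its 3 other groups lay close together, and GFP- cluster cells stood apart from their mean by 1.43 ± 0.056 (adjusted p = 0.000112). Fech, which inserts the iron, was higher by 1.04 ± 0.033 than the mean of the other groups. Alas1, the enzyme that other tissues use for the same initial step, differed by 0.11 from GFP+ cluster cells and -0.05 from GFP- endothelial cells, neither called, and was called lower than in GFP+ endothelial cells (-0.21).

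Of 15 genes of iron handling, 8 lay above all other arrays (53.3%, against 7.80% of tested genes). Below lay 1 (Snx3, a sorting protein of transferrin receptor traffic), and 4 were called higher than all 3 groups. Slc25a37, the mitochondrial iron importer mitoferrin of red cell precursors, read 3.86 and 3.77 on the GFP- cluster arrays, 1.87 and 1.84 on the GFP+ cluster arrays, 2.16 and 2.13 on the GFP- endothelial arrays and 1.64 and 1.61 on the GFP+ endothelial arrays. The difference was 1.94 ± 0.039 from the mean of the other groups (adjusted p = 1.07e-05). Tfrc, the transferrin receptor, read 0.15 and 0.17 on the GFP- cluster arrays, -1.06 and -0.98 on the GFP+ cluster arrays, -0.19 and -0.21 on the GFP- endothelial arrays and -0.80 and -0.88 on the GFP+ endothelial arrays. Its smallest difference was 0.36 ± 0.052 from GFP- endothelial cells (adjusted p = 0.00869). Tfr2, a second transferrin receptor of red cell precursors and liver, did not follow the order of the genes above, since GFP+ cluster cells (-1.98 and -1.94) rather than GFP- endothelial cells (-2.62 and -2.69) came next after the -0.83 and -0.82 of GFP- cluster cells. For the iron transporter gene Slc11a2, also called higher than all 3 groups, GFP- endothelial cells were the lowest group (-1.28 and -1.26 in GFP- cluster cells and -1.70 and -1.64 in GFP- endothelial cells). The iron exporter Slc40a1 was called lower than in GFP+ cluster cells (-1.09). With the normexp background correction the list had 4 genes above all other arrays, and 5 when spots of high local background were left out. Over all tested genes these settings had 736 and 966 above, against 1521 in the main one.

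Among transcription factors and receptors of the red cell line, 11 of the 22 tested (of 26 on the array) lay above all other arrays. The share was 50%, against 7.80% of tested genes. None lay below and 6 were called higher than all 3 groups. Klf1, the factor that activates adult beta globin and many membrane genes, read -0.44 and -0.37 on the GFP- cluster arrays, -3.30 and -3.27 on the GFP+ cluster arrays, -2.03 and -2.05 on the GFP- endothelial arrays and -3.60 and -3.17 on the GFP+ endothelial arrays. GFP- cluster cells were higher by 2.88 ± 0.14, 1.63 ± 0.14 and 2.99 ± 0.14 than GFP+ cluster, GFP- endothelial and GFP+ endothelial cells. Epor, the erythropoietin receptor, read 1.88 and 1.85 on the GFP- cluster arrays, 0.13 and 0.16 on the GFP+ cluster arrays, 0.26 and 0.27 on the GFP- endothelial arrays and -0.15 and -0.13 on the GFP+ endothelial arrays. Its lower GFP- cluster array lay 1.58 above the highest other array. Gata1 itself read 1.04 and 1.096 on the GFP- cluster arrays, -0.54 and -0.58 on the GFP+ cluster arrays, -0.08 and -0.13 on the GFP- endothelial arrays and -1.58 and -1.68 on the GFP+ endothelial arrays. Here GFP- endothelial cells came next and GFP+ endothelial cells were lowest. Ahsp, which binds free alpha globin, read 2.97 and 3.02 on the GFP- cluster arrays, -0.81 and -0.73 on the GFP+ cluster arrays, 1.98 and 2.05 on the GFP- endothelial arrays and -0.39 and -0.55 on the GFP+ endothelial arrays. Other members of the list were shared with GFP+ cluster cells and were higher there. Myb was -1.90 against GFP+ cluster cells but 3.47 and 2.59 against GFP- and GFP+ endothelial cells, and Gfi1b, Nfe2 and Ikzf1 had the same signs, all called. Tal1, which lay above all other arrays, differed from GFP+ cluster cells by 0.16 ± 0.046, which did not pass (adjusted p = 0.0509).

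Because these genes moved together, the 250 bases before their transcript starts were searched for letters bound by GATA factors, in RefSeq windows on GRCm38.p6. Only AGATAA or TGATAA on either strand was counted, and other letters that these factors may bind were not searched. Of the 51 genes of the 6 red cell lists that were called higher, 35 had a window and 15 of these held the letters (42.9%). The share was 25.8% over the 93 tested members with a window, called or not, 11.0% over the 191 genes called higher that are in none of these lists, 11.9% over the 134 genes called lower, 10.2% over 11661 tested genes and 17.0% over all 27025 windows. A second search for the CACCC-type letters CCNCNCCC, bound by Klf factors, found them in 60.0% of the called red cell windows and 62.2% of tested genes. The 4 windows printed here hold GATA letters and belong to the membrane genes Kel and Rhag, the factor gene Klf1 and the receptor gene Epor; they run 5′ to 3′ along the transcript and end at the base before its start, with the GATA letters or their reverse complement in capitals. Kel (chr6:41704326-41704575, minus strand) holds 2, which begin 56 and 19 bases before the start. Klf1 (chr8:84901732-84901981, plus strand) holds 1 at 80 bases, Rhag (chr17:40810899-40811148, plus strand) 1 at 31 bases and Epor (chr9:21963577-21963826, minus strand) 1 at 54 bases. A match of letters is a description of the window and not a binding site.
Kel: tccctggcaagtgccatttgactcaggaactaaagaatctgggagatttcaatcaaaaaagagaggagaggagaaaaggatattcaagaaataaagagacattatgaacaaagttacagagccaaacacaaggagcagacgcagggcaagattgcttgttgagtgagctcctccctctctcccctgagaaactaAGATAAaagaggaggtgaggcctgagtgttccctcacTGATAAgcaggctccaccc
Klf1: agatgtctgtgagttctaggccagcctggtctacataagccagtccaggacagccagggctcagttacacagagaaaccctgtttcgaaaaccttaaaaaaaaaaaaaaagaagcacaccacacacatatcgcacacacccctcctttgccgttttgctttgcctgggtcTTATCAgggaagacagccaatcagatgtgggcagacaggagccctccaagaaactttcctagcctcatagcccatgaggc
Rhag: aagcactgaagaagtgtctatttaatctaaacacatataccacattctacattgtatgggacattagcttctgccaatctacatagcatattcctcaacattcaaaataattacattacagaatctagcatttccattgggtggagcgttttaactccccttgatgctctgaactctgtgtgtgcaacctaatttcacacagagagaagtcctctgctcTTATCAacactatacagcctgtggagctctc
Epor: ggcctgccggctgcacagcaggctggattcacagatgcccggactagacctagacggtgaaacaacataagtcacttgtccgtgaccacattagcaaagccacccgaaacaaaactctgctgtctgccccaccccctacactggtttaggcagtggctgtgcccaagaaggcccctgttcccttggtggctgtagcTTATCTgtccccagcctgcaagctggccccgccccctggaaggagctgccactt

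Other genes of red cell maturation gave 16 of 38 tested members above all other arrays (43 on the array). The share was 42.1%, against 7.80% of tested genes. None lay below and 11 were called higher than all 3 groups. The amino acid carrier Slc38a5 read 1.94 and 1.91 on the GFP- cluster arrays, -2.04 and -2.08 on the GFP+ cluster arrays, 0.04 and 0.07 on the GFP- endothelial arrays and -0.21 and -0.14 on the GFP+ endothelial arrays. GFP+ cluster cells were lowest for this gene, and the difference was 3.99 ± 0.046 from them, 1.87 ± 0.046 from GFP- endothelial cells and 2.10 ± 0.046 from GFP+ endothelial cells. The tetraspanin gene Tspan33 read 2.17 and 2.03 on the GFP- cluster arrays, -0.61 and -0.73 on the GFP+ cluster arrays, 0.24 and 0.40 on the GFP- endothelial arrays and -1.38 and -1.60 on the GFP+ endothelial arrays. Pklr, the pyruvate kinase of red cells and liver, read -3.19 and -3.25 on the GFP- cluster arrays, -6.52 and -5.71 on the GFP+ cluster arrays, -4.40 and -4.22 on the GFP- endothelial arrays and -6.47 and -6.66 on the GFP+ endothelial arrays. It was at least 2.77-fold higher than in GFP+ cluster cells and at least 5.25-fold higher than in GFP+ endothelial cells, where it was not well above background. Slc6a9, which was kept in the list of amino acid transporters and encodes the glycine transporter that feeds heme synthesis in red cell precursors, read 1.60 and 1.61 on the GFP- cluster arrays, -0.77 and -0.80 on the GFP+ cluster arrays, -0.27 and -0.33 on the GFP- endothelial arrays and -1.68 and -1.64 on the GFP+ endothelial arrays. The difference was 2.52 ± 0.037 from the mean of the other groups. Art4, a blood group enzyme gene, was lower than in both GFP+ groups (-1.27 and -1.04, both called).

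Genes of early erythroid and erythro-myeloid precursors did not behave like the 6 lists above. Of 15 tested, 2 lay above all other arrays (13.3%, against 7.80% of tested genes). These were Aqp3 and Ermap, both also in the membrane list. None lay below and 1 was called higher than all 3 groups. The median was -0.50 against GFP+ cluster cells, where 10 were called lower and 2 higher, 0.42 against GFP- endothelial cells, where 10 were called higher and none lower, and 0.36 against GFP+ endothelial cells, where 7 were called higher and 2 lower. Over all tested genes the shares called higher and lower were 21.0% and 11.8%, 11.9% and 12.5%, and 31.4% and 15.7% in that order.

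Several of the genes furthest above belonged to no list. Clec12a, an inhibitory lectin receptor of myeloid cells, had the widest gap among the genes called higher than all 3 groups but was well above background only in GFP- cluster cells, where it read -4.44 and -3.92. The bounds were at least 1.42-fold, 2.3-fold and 2.69-fold higher than in GFP+ cluster, GFP- endothelial and GFP+ endothelial cells. Acp5, the tartrate-resistant acid phosphatase, read 4.37 and 4.41 on the GFP- cluster arrays, 1.45 and 1.40 on the GFP+ cluster arrays, 2.83 and 2.85 on the GFP- endothelial arrays and 0.59 and 0.54 on the GFP+ endothelial arrays. It was well above background on every array, and its difference from the mean of the other groups was 2.78 ± 0.037 (adjusted p = 6.11e-06). Acss1, a mitochondrial acetate-activating enzyme, read 0.55 and 0.59 on the GFP- cluster arrays, -0.87 and -0.86 on the GFP+ cluster arrays, -1.12 and -1.06 on the GFP- endothelial arrays and -1.75 and -1.78 on the GFP+ endothelial arrays. Both genes were called higher than all 3 groups. Nepn, an extracellular matrix proteoglycan gene, read -1.81 and -1.76 on the GFP- cluster arrays, -4.13 and -3.67 on the GFP+ cluster arrays, -3.71 and -3.40 on the GFP- endothelial arrays and -3.89 and -3.91 on the GFP+ endothelial arrays. Atp1b2, a beta subunit of the sodium pump, read -1.68 and -1.77 on the GFP- cluster arrays, -4.09 and -4.08 on the GFP+ cluster arrays, -3.27 and -3.34 on the GFP- endothelial arrays and -3.85 and -4.09 on the GFP+ endothelial arrays. Lmx1a, a homeobox gene best known from the nervous system, read -0.98 and -1.03 on the GFP- cluster arrays, -4.44 and -4.51 on the GFP+ cluster arrays, -2.51 and -2.54 on the GFP- endothelial arrays and -4.69 and -3.76 on the GFP+ endothelial arrays. It was at least 11.1-fold higher than in GFP+ cluster cells, where it was not well above background. Ccdc92b lay above all other arrays but was not called against GFP- endothelial cells (adjusted p = 0.116).

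Genes of arterial endothelium were among those furthest below all other arrays. Gja5 encodes connexin 40, the gap junction protein of arterial endothelium and the conduction system (probe on chromosome 3, 96857349 to 96857408). It read 0.56 and 0.55 on the GFP- cluster arrays, 2.59 and 2.55 on the GFP+ cluster arrays, 1.93 and 2.06 on the GFP- endothelial arrays and 4.15 and 4.19 on the GFP+ endothelial arrays. GFP- cluster cells were lowest, GFP- endothelial cells next and GFP+ endothelial cells highest, with no overlap between groups. The difference was -2.01 ± 0.058 from GFP+ cluster cells, -1.44 ± 0.058 from GFP- endothelial cells (adjusted p = 0.000144) and -3.62 ± 0.058 from GFP+ endothelial cells. Gja4, connexin 37, read 1.26 and 1.34 on the GFP- cluster arrays, 2.36 and 2.45 on the GFP+ cluster arrays, 2.69 and 2.64 on the GFP- endothelial arrays and 3.85 and 3.95 on the GFP+ endothelial arrays. There the 3 other groups were ordered from GFP+ cluster to GFP- endothelial to GFP+ endothelial cells. Bmx, a kinase of arterial endothelium, read -1.76 and -1.64 on the GFP- cluster arrays, -0.22 and -0.18 on the GFP+ cluster arrays, -0.99 and -1.02 on the GFP- endothelial arrays and 0.77 and 0.87 on the GFP+ endothelial arrays.

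Of 28 arterial and Notch genes, all tested, 11 lay below all other arrays (39.3%, against 3.66% of tested genes) and 1 above. Of the list 8 were called lower than all 3 groups, against 0.918% of tested genes. The median difference was 0.13 from GFP+ cluster cells, -0.47 from GFP- endothelial cells and -0.81 from GFP+ endothelial cells, so its sign differed between the comparisons. With normexp without spots of high local background the first of these was 0.06. Against GFP+ cluster cells 10 members were called higher and 9 lower, against GFP- endothelial cells 1 higher and 20 lower, and against GFP+ endothelial cells 2 higher and 20 lower. Igfbp3 (1.17), Unc5b (1.07) and Cxcl12 (0.76) were among those higher than in GFP+ cluster cells. Hey2, a transcription factor induced by Notch, was not well above background in GFP- cluster cells, and was at least 1.42-fold lower than in GFP- endothelial cells and at least 5.45-fold lower than in GFP+ endothelial cells. Hes1, another Notch target, was the member above (-1.34 and -1.62 in GFP- cluster cells and at most -1.68 on the other arrays), although its difference from GFP- endothelial cells did not pass (adjusted p = 0.17). In the authors' deposited table no member lay above. Of 33 general endothelial genes 1 lay above and 2 below (3.03% and 6.06%, against 7.80% and 3.66% of tested genes). The number below was 5 with quantile normalization and 5 in the deposited table. In these settings 983 and 956 of all tested genes lay below, against 713 in the main one. Pairwise, 18 were called higher and 3 lower than in GFP+ cluster cells. The counts were 2 and 16 against GFP- endothelial cells, and 4 and 18 against GFP+ endothelial cells. Of all tested genes, the shares called higher and lower were 21.0% and 11.8%, 11.9% and 12.5%, and 31.4% and 15.7% in that order. Jam2, a junction adhesion protein gene, was the one called lower than all 3 groups. It read -2.23 and -2.14 on the GFP- cluster arrays, -0.43 and -0.52 on the GFP+ cluster arrays, -1.58 and -1.56 on the GFP- endothelial arrays and 0.30 and 0.38 on the GFP+ endothelial arrays.

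Venous and lymphatic genes went the other way in part: 5 of 16 lay above all other arrays (31.2%, against 7.80% of tested genes). None lay below, and only Prox1 and Nrp2 were called higher than all 3 groups. Pairwise, 11 were called higher and 2 lower than in GFP+ cluster cells. The counts were 10 and 4 against GFP- endothelial cells, and 6 and 6 against GFP+ endothelial cells. Over all tested genes the shares called higher and lower were 21.0% and 11.8%, 11.9% and 12.5%, and 31.4% and 15.7% in that order. Prox1, the factor that specifies lymphatic endothelium, read -3.25 and -3.12 on the GFP- cluster arrays, -5.12 and -5.36 on the GFP+ cluster arrays, -4.66 and -4.41 on the GFP- endothelial arrays and -5.47 and -5.62 on the GFP+ endothelial arrays. It was not well above background in GFP+ cluster cells, which gives at least 2.84-fold. Nrp2, a receptor for lymphatic growth factors, read 5.28 and 5.31 on the GFP- cluster arrays, 4.37 and 4.38 on the GFP+ cluster arrays, 5.11 and 5.10 on the GFP- endothelial arrays and 5.001 and 5.10 on the GFP+ endothelial arrays. Its difference from GFP- endothelial cells was small (0.19 ± 0.050, adjusted p = 0.0424). The list had 3 genes above with the normexp correction without spots of high local background. In that setting 966 of all tested genes lay above, against 1521 in the main one.

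Other genes that lay far below were in no list, and for most of those shown GFP+ endothelial cells were highest. Tmem100, a transmembrane protein gene of arterial endothelium, read -3.37 and -3.42 on the GFP- cluster arrays, -1.66 and -1.71 on the GFP+ cluster arrays, -2.15 and -2.15 on the GFP- endothelial arrays and 0.47 and 0.41 on the GFP+ endothelial arrays. The difference was -2.26 ± 0.039 from the mean of the other groups (adjusted p = 6.89e-06). Palmd read -2.71 and -2.53 on the GFP- cluster arrays, -1.45 and -1.57 on the GFP+ cluster arrays, -1.39 and -1.33 on the GFP- endothelial arrays and -0.21 and -0.18 on the GFP+ endothelial arrays. Htra1, a secreted protease, read -1.47 and -1.37 on the GFP- cluster arrays, 0.53 and 0.55 on the GFP+ cluster arrays, -0.46 and -0.47 on the GFP- endothelial arrays and 2.42 and 2.46 on the GFP+ endothelial arrays. Pdlim3, a protein of the actin-associated Z line, read -0.69 and -0.76 on the GFP- cluster arrays, 1.05 and 0.99 on the GFP+ cluster arrays, -0.05 and 0.06 on the GFP- endothelial arrays and 2.38 and 2.38 on the GFP+ endothelial arrays. In all 4 genes GFP- cluster cells were lowest and GFP+ endothelial cells highest. Tbxas1, the thromboxane synthase gene, had another order, with -3.93 and -3.81 on the GFP- cluster arrays, -2.17 and -2.30 on the GFP+ cluster arrays, -2.89 and -2.91 on the GFP- endothelial arrays and -3.21 and -3.07 on the GFP+ endothelial arrays. Here GFP+ cluster cells were highest. Elastic fibre genes Ltbp4 (-1.56 ± 0.056), Mfap5 (-1.84 ± 0.089) and Fbln5 of the arterial list (-1.50 ± 0.095) were called lower too. So was the smooth muscle actin gene Acta2 (-0.43 ± 0.051). Mfap5 and Acta2 are in the mesenchyme list, which did not follow as a whole. Of its 23 tested members 14 were called higher and 6 lower than in GFP+ cluster cells. The counts were 2 and 12 against GFP- endothelial cells, and 8 and 6 against GFP+ endothelial cells. Shares of all tested genes called higher and lower were 21.0% and 11.8%, 11.9% and 12.5%, and 31.4% and 15.7% in that order. The complement gene Cfi (-1.68), the myelin and lymphocyte gene Mal (-1.69) and the receptor gene Osmr (-1.29) were called lower than all 3 groups.

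Platelet genes lay below the other groups in part: 8 of 21 tested (of 22 on the array) lay below all other arrays, none lay above and 5 were called lower than all 3 groups, against 3.66% and 0.918% of tested genes. Gp1ba, a chain of the platelet receptor for von Willebrand factor, read -2.98 and -3.05 on the GFP- cluster arrays, -1.92 and -1.93 on the GFP+ cluster arrays, -1.76 and -1.68 on the GFP- endothelial arrays and -1.43 and -1.41 on the GFP+ endothelial arrays. It was lower by 1.09, 1.29 and 1.60 than in GFP+ cluster, GFP- endothelial and GFP+ endothelial cells, each with an SE of 0.050. The platelet chemokine gene Pf4 read 2.00 and 2.00 on the GFP- cluster arrays, 2.63 and 2.56 on the GFP+ cluster arrays, 4.05 and 4.03 on the GFP- endothelial arrays and 3.02 and 2.89 on the GFP+ endothelial arrays. Ppbp, another platelet chemokine gene, read -2.41 and -2.31 on the GFP- cluster arrays, -1.76 and -1.89 on the GFP+ cluster arrays, 0.44 and 0.37 on the GFP- endothelial arrays and -0.49 and -0.44 on the GFP+ endothelial arrays. For both the GFP- endothelial arrays were the highest of the 8. Not all of the list followed: pairwise, 13 members were called lower and 4 higher than in GFP+ cluster cells, 12 lower and 3 higher than in GFP- endothelial cells, and 10 lower and 5 higher than in GFP+ endothelial cells. Over all tested genes the shares called lower and higher were 11.8% and 21.0%, 12.5% and 11.9%, and 15.7% and 31.4% in that order. The list's summed linear signal was 66.8 and 69.9 in GFP- cluster cells, 80.7 and 81.2 on the GFP+ cluster arrays, 92.4 and 93.1 on the GFP- endothelial arrays and 120 and 123 on the GFP+ endothelial arrays. Whether platelets or their RNA contributed to these levels was not tested. S100a9, a calcium-binding protein of neutrophils, was not well above background in either cluster group. In GFP- cluster cells it was at least 11-fold lower than in GFP- endothelial cells (-1.75 and -1.75) and at least 12.2-fold lower than in GFP+ endothelial cells (-1.60 and -1.59).

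**Figure D2:**
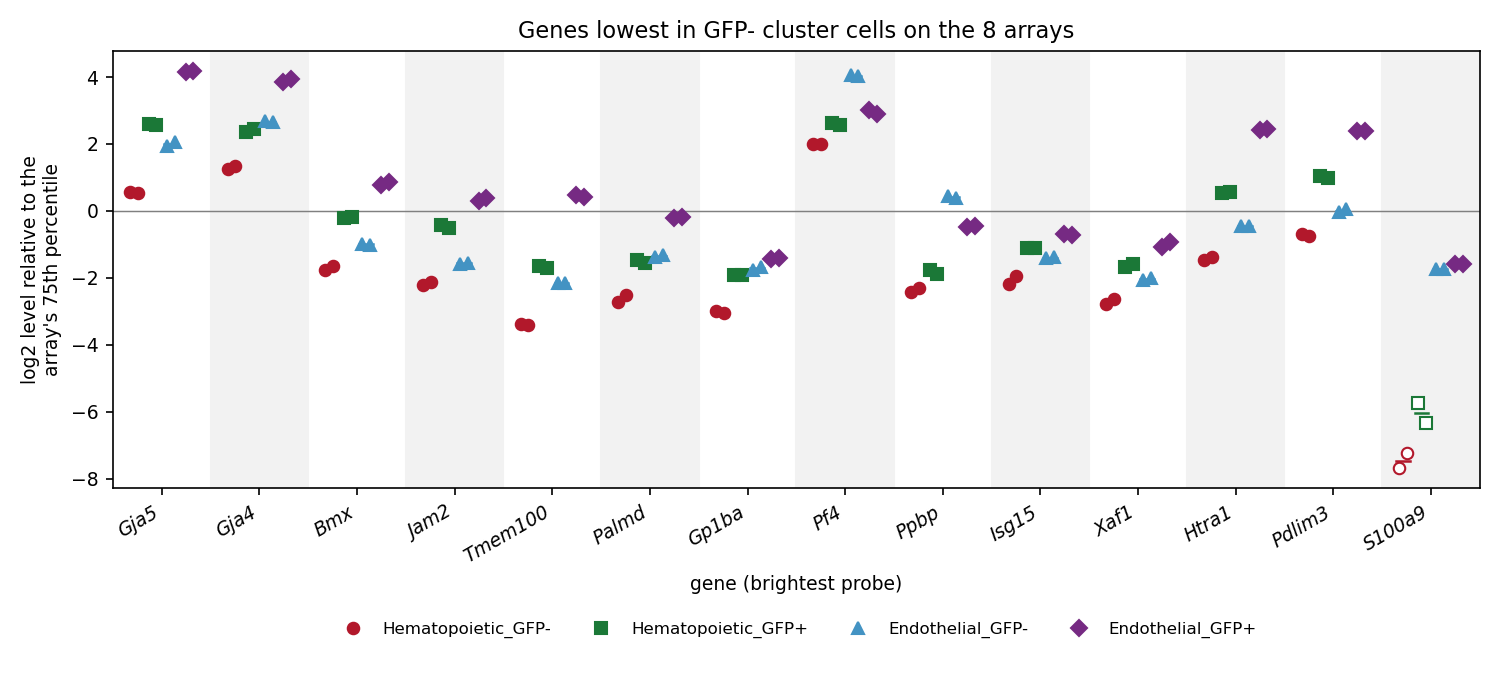
Level on the log2 scale, relative to the 75th percentile of the array (vertical axis), of 14 genes that lay below all other arrays in Hematopoietic_GFP- cells, with 1 point per array, a line at each group mean and open symbols where neither array of a group was well above background. The arterial genes on the left are highest in Endothelial_GFP+ cells, and the platelet genes Pf4 and Ppbp in Endothelial_GFP- cells.

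Of 42 interferon response genes tested (49 on the array), 6 lay below all other arrays (14.3%, against 3.66% of tested genes). None lay above, and 3 were called lower than all 3 groups, against 0.918% of tested genes. Isg15, a ubiquitin-like protein induced by interferon, read -2.19 and -1.95 on the GFP- cluster arrays, -1.096 and -1.097 on the GFP+ cluster arrays, -1.42 and -1.39 on the GFP- endothelial arrays and -0.70 and -0.73 on the GFP+ endothelial arrays. Xaf1, an interferon-induced gene linked to cell death, read -2.79 and -2.64 on the GFP- cluster arrays, -1.69 and -1.60 on the GFP+ cluster arrays, -2.07 and -1.99 on the GFP- endothelial arrays and -1.08 and -0.93 on the GFP+ endothelial arrays. B2m, the light chain of MHC class I, read 3.44 and 3.42 on the GFP- cluster arrays, 3.88 and 3.75 on the GFP+ cluster arrays, 3.71 and 3.69 on the GFP- endothelial arrays and 3.96 and 3.96 on the GFP+ endothelial arrays. In these 3 genes the GFP- endothelial arrays were next lowest. Pairwise, 34 of the 42 were called lower than in GFP+ cluster cells and 2 higher, 30 lower and 2 higher than in GFP+ endothelial cells, but 3 lower and 17 higher than in GFP- endothelial cells. Most of the list was thus called lower than in each GFP+ group, but few members were called lower than in GFP- endothelial cells. Over all tested genes 11.8% were called lower than in GFP+ cluster, 15.7% than in GFP+ endothelial and 12.5% than in GFP- endothelial cells. The share called higher than in GFP- endothelial cells was 11.9%. Within slide 2 alone, where fewer arrays are compared, 12 members lay below the other arrays. So did 1677 of the 19501 tested genes, against 713 over both slides.

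Genes of blood cells in general and of macrophages were mostly called lower than in GFP+ cluster cells and higher than in GFP- endothelial cells. Of 30 general blood cell genes, 28 were called lower than in GFP+ cluster cells and none higher, while 19 were called higher than in GFP- endothelial cells and 18 higher than in GFP+ endothelial cells. None lay above all other arrays and 1 lay below (3.33%, against 3.66% of tested genes). This was Lcp1, an actin-bundling protein of leukocytes. Lcp1 is a border case with another probe of opposite sign. Of 27 tested macrophage genes none lay outside the other arrays: 26 were called lower than in GFP+ cluster cells, and 23 higher than in GFP- endothelial cells. Against GFP+ endothelial cells 4 were called higher and 5 lower, with a median difference of -0.021. The summed linear signal of the 28 macrophage genes on the array was 16.8 and 17.2 in GFP- cluster cells, 48.8 and 49.6 on the GFP+ cluster arrays, 8.45 and 8.49 on the GFP- endothelial arrays and 16.7 and 17.3 on the GFP+ endothelial arrays. Of 30 stem cell genes, 2 lay below all other arrays (6.67%, against 3.66% of tested genes). They were Vwf, which encodes von Willebrand factor, and the cell cycle inhibitor gene Cdkn1c. Cdkn1c was called lower than all 3 groups, by -0.41, -0.30 and -0.24 from GFP+ cluster, GFP- endothelial and GFP+ endothelial cells, but its call against their mean was lost when either GFP- cluster array was left out. The stem cell list had 6 members below with quantile normalization and 6 in the deposited table. Over all tested genes the number below also rose, from 713 to 983 and 956. Pairwise, 1 of the 30 stem cell genes was called higher and 20 lower than in GFP+ cluster cells. The counts were 11 and 3 against GFP- endothelial cells, and 12 and 12 against GFP+ endothelial cells. Over all tested genes the shares called higher and lower were 21.0% and 11.8%, 11.9% and 12.5%, and 31.4% and 15.7% in that order. The stem cell factor genes Hlf and Runx1 were called lower than in GFP+ cluster cells (-2.41 and -1.96) and higher than in GFP- endothelial cells (3.06 and 2.23).

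**Figure D3:**
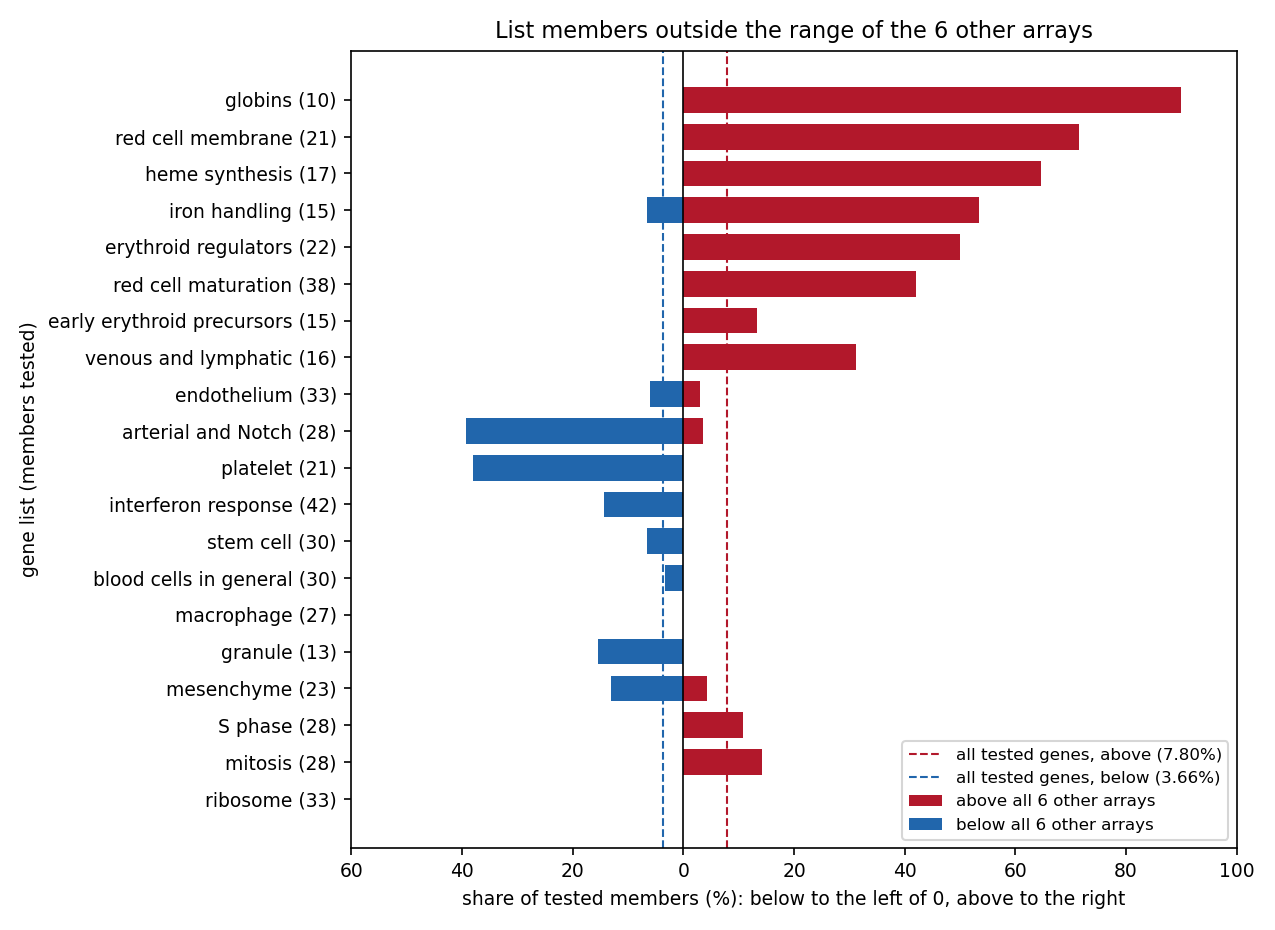
Share of the tested members of 20 gene lists (vertical axis, with the number tested) that lay above (red, right) or below (blue, left) all 6 other arrays in Hematopoietic_GFP- cells, with dashed lines at the shares over all tested genes, 7.80% and 3.66%. The 6 lists from globins to red cell maturation extend furthest to the right, and the arterial and platelet lists furthest to the left.

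**Figure D4:**
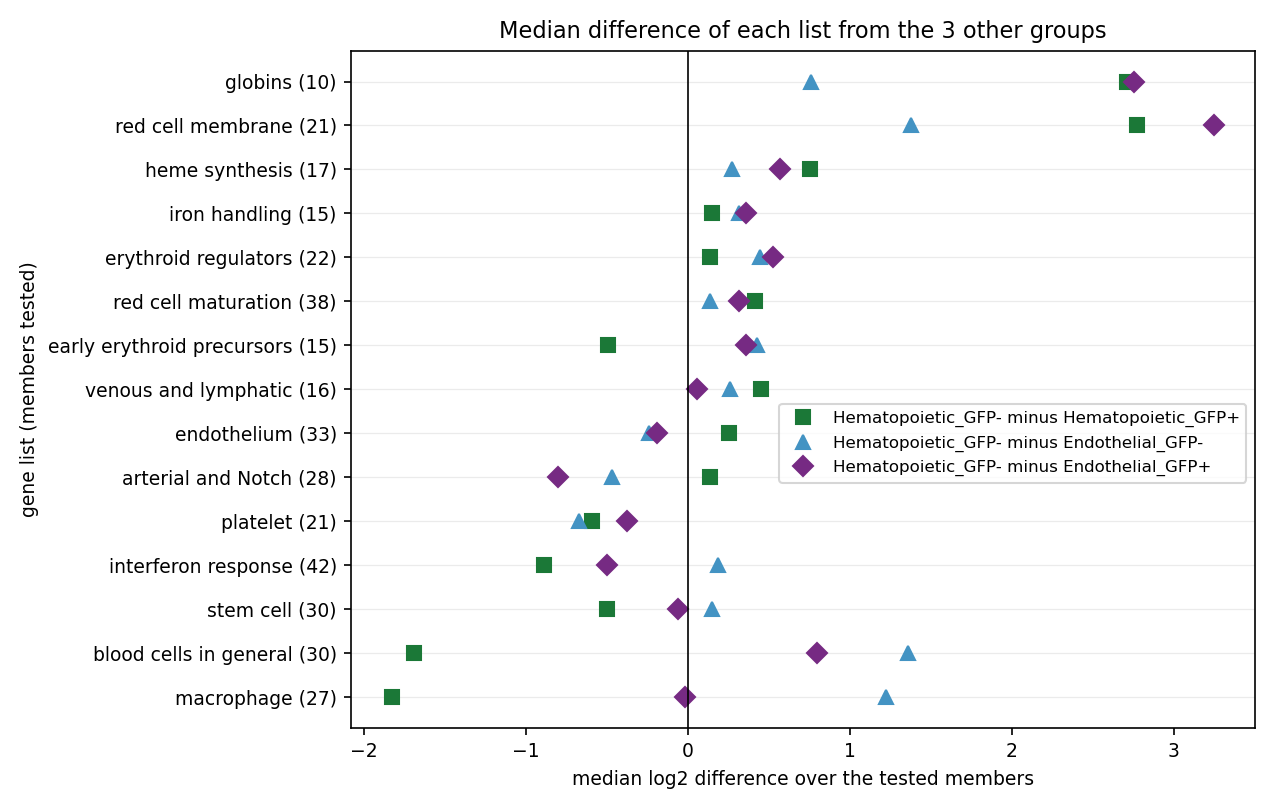
Median log2 difference of Hematopoietic_GFP- cells from each other group (horizontal axis) over the tested members of 15 gene lists (vertical axis). The 6 lists from globins to red cell maturation lie right of 0 in all 3 comparisons, the platelet list lies left of 0, and the early erythroid precursor, blood cell and macrophage lists change side between comparisons. The macrophage median against Endothelial_GFP+ is close to 0, and that of the venous list against Endothelial_GFP+ turned to -0.0073 with the normexp correction without spots of high local background.

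The group nearest to GFP- cluster cells varied from gene to gene. Of the 372 genes called higher than all 3 groups, the next highest group by mean was GFP- endothelial cells for 211 (56.7%), GFP+ cluster cells for 96 (25.8%) and GFP+ endothelial cells for 65 (17.5%). Of the 179 called lower, the next lowest group was GFP- endothelial cells for 98 (54.7%), GFP+ cluster cells for 66 (36.9%) and GFP+ endothelial cells for 15 (8.38%). The interaction asked whether the difference between GFP- and GFP+ was larger in cluster cells than in endothelial cells, and it was called positive for 15.5% and negative for 15.7% of tested genes. Among the 372 genes called higher it was positive for 239 (64.2%) and negative for 5 (1.34%). Among the 179 called lower it was positive for 52 (29.1%) and negative for 41 (22.9%). Both sets were chosen on the arrays that enter the interaction, so these shares, and the values of single genes, are a description. For Gata1 the interaction was 0.10 ± 0.076, for Gja5 0.16 ± 0.082 and for Slc38a5 3.75 ± 0.066.

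The border between members and the rest was narrow. Just inside on the upper side were Ctcf, whose lower GFP- cluster array exceeded the highest other array by 0.0001, and Ythdf1 by 0.0003; just outside were Qrich1 and Pot1a, both short by 0.0001. On the lower side Lcp1 lay inside by less than 0.0001 and Atraid by 0.0005, and Pomgnt2 and Bex1 lay outside by 0.0002 and 0.0003.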

How the data were processed

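Gene expression was measured on 8 one-colour Agilent arrays, 2 for each of 4 sorted groups. The authors deposited scanner files made with Agilent Feature Extraction 10.10.1.1, per the submitters' processing notes, whose processed signal is an intensity on a linear scale with the background already subtracted. Probe coordinates are on mm9, per the file headers. The deposited series table holds linear intensities with a median of 198 in each column, r 0.997 to 1.000 with the scanner values on the log2 scale; its normalization is not stated in the sources at hand, and it served as an alternative.

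Control spots and spots with outlier marks were left out, and so were 10 probes with every spot marked on an array. The log2 of the processed signal was taken relative to the 75th percentile of its array, and the remaining spots of a probe were averaged. Each gene is its brightest probe (31823 genes). Of the probes 26055 were named by accession, 3195 by symbol, and 10179 keep the file's own name. A gene was tested if both arrays of 1 group or more had it well above background. limma 3.58.1 (R 4.3.3) fitted 1 mean per group over all 8 arrays with 4 residual degrees of freedom, and p-values were adjusted over all 19501 genes by the Benjamini-Hochberg method. A gene is called against all 3 groups where the 3 differences have 1 sign and each adjusted p is under 0.05. The fit was tested on simulated data. A fold given as "at least" is a bound: the mean of the brighter group over the lowest signal well above background on the dimmer group's arrays, or the dim probe's own where higher.

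The replicate number is the slide. The correlation of the replicate deviations between groups was 0.139 to 0.360 for the 6 pairs of groups, which pairs the arrays by number, and the slide was fitted as a block. Each group also has its own position on the slide, and position and group cannot be told apart. Alternatives were the normexp background correction, quantile normalization, the deposited table, other probe filters, the mean of a gene's probes, trend and robust moderation, a fold minimum, each slide alone and leaving out each array.

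The genes named are the 3 given markers, those with the widest gaps in each direction, those with the widest gaps in no list, the sort genes, up to 5 members of each list with members that go the other way, and the genes at the border; other members of a list are named where its count includes them. The members and the 32 gene lists were chosen with earlier results of these data known. A few genes are not reported here. Promoter windows are from RefSeq on GRCm38.p6, the first listed for each symbol.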

Additional observations from a re-analysis of the deposited data

Results flagged for a closer look

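For the 3 markers the difference between GFP- and GFP+ cells was larger in the clusters than in the endothelium, as a difference of differences in the limma fit. The excess was 1.34 for Slc4a1, 1.59 for Kel and 1.77 for Abcg4 on the log2 scale. The markers were chosen for their high level on the GFP- cluster arrays, which enter this comparison, so these values are a description and no p-value is given. In all 3 genes both GFP- cluster arrays were above both GFP+ cluster arrays, and both GFP- endothelial arrays were above both GFP+ endothelial arrays, so the direction was shared and the size differed. Over all tested genes 15.5% were called on one side and 15.7% on the other side of this comparison.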

How the results depend on the processing

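In the fit described, 6407, 4750 and 9187 genes were called against GFP+ cluster, GFP- endothelial and GFP+ endothelial cells, 3710 against the mean of the 3 groups and 6082 for the interaction. With the normexp background correction 736 genes lay above all other arrays, 5 were called higher and 0 lower than all 3 groups, and the calls numbered 127, 14, 134, 48 and 1 in the same order; with normexp the median over all genes against GFP- endothelial cells was -0.17, against 0.0041. Osr1 turned to -0.03434. Leaving out the 2 spots of high local background, a setting added after seeing the data, gave 966 above, 182 higher and 105 lower, and 2739, 5971, 2034 and 3783 calls against both endothelial groups, the mean and for the interaction. Without a filter on dim probes the numbers were 149 higher, 62 lower, 3792 and 1473 against both GFP+ cluster and GFP- endothelial cells, 1524 and 2741. With at least a 2-fold difference, or a gap of at least 1, there were 65 above, 4 below, 76 higher, 8 lower, and 1052, 419, 1575, 333 and 1110 calls. With only the compared groups in the fit, 2582 genes were called against GFP- endothelial cells. Within slide 1 alone 4116 genes lay above and 1693 below, and within slide 2 alone 4041 and 1677. With the slide as a replicate block 2288 lay above and 946 below, and 6878, 5231 and 10279 genes were called against the 3 groups, with 414 higher and 186 lower than all of them; the paired fit thus moved no count of calls by over 1.5 times. Against the mean of the 3 groups 62.9% of called genes were higher, but 50.0% with quantile normalization and 49.9% in the deposited table. Leaving out 1 array at a time gave 1621 to 3078 above, 755 to 1195 below, 160 to 321 higher, 80 to 136 lower, and 3682 to 5738, 1605 to 4212, 5577 to 9017, 1255 to 2987 and 3593 to 4659 calls. The cause of these changes was not tested, except that leaving arrays out lowers the residual degrees of freedom of the calls. The counts above and below carry no test, and comparing fewer arrays can only raise them. Genes not well above background have only bounds, and 2 arrays per group limit the precision.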

Other observations

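Among the genes called higher than all 3 groups and in no list, chosen after their values were seen, were the metallothionein genes Mt1 and Mt2. Mt2, which encodes a metal-binding protein, read 4.79 and 4.73 on the GFP- cluster arrays, 1.52 and 1.60 on the GFP+ cluster arrays, 3.36 and 3.44 on the GFP- endothelial arrays and 0.96 and 0.96 on the GFP+ endothelial arrays, and Mt1 differed from the mean of the other groups by 2.18 ± 0.035. Also higher were the transcriptional co-regulator gene Cited4 (2.39 ± 0.061), Tent5c, a poly(A) polymerase gene (2.00 ± 0.047), and Smim1, the gene of the Vel blood group (1.67 ± 0.041). Etv2, a transcription factor gene of early blood and endothelial precursors, read -1.51 and -1.44 on the GFP- cluster arrays, -3.23 and -3.34 on the GFP+ cluster arrays, -2.16 and -2.17 on the GFP- endothelial arrays and -3.70 and -3.86 on the GFP+ endothelial arrays. In these genes GFP- endothelial cells were the nearest group.

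Among the genes called lower and in no list, also chosen after their values were seen, was Cyp26a1, which breaks down retinoic acid, with -4.28 and -3.94 on the GFP- cluster arrays, -3.31 and -3.46 on the GFP+ cluster arrays, -3.34 and -3.26 on the GFP- endothelial arrays and -1.62 and -1.60 on the GFP+ endothelial arrays. Its paralog Cyp26b1 was lower by a smaller amount (-0.50 ± 0.036). The surface antigen gene Ly6c1, a relative of Ly6a, read -1.23 and -1.06 on the GFP- cluster arrays, 0.76 and 0.93 on the GFP+ cluster arrays, -0.70 and -0.67 on the GFP- endothelial arrays and 1.42 and 1.41 on the GFP+ endothelial arrays. Ass1, an enzyme of arginine synthesis (-1.37 ± 0.055), and the hedgehog ligand gene Dhh (-1.05 ± 0.062) were lower as well, each with GFP+ endothelial cells highest.

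Lists of other kinds gave few members. Over all tested genes 7.80% lay above and 3.66% below all other arrays, and 1.91% were called higher and 0.918% lower. A single member outside the other arrays is not read as a result about its list. Of 28 mitosis genes 4 lay above and Mki67 was called higher (0.35 ± 0.041). None of the 33 ribosome genes, 20 glycolysis genes, 16 liver and yolk sac genes or 6 mast cell genes lay above or below all other arrays. Of 20 amino acid transporter genes 3 lay above (Slc6a9, Slc38a5 and Slc43a1) and 1 below (Slc7a7). Of 35 genes of the TNF, NF-kB and Toll-like receptor list 2 lay below, Tlr4 and Tnfrsf1a, and none was called against all 3 groups. Of 21 cholesterol synthesis genes 1 lay above (Insig1), of 29 respiratory chain genes 1 lay below (Uqcrc1), of 10 germ cell genes 1 lay above (Nanog), and of 11 epithelial genes 1 lay above (Cdh1) and 1 below (Krt18), none of them called against all 3 groups. Of 23 mesenchyme genes 1 lay above (Osr1) and 3 below (Mfap5, Acta2 and Fn1), and of 13 granule genes 2 lay below (S100a9 and S100a8). Neither of these granule genes was well above background in either cluster group. S100a8 was not called lower than in GFP+ cluster cells (limma adjusted p = 0.177). In the lymphoid list Vpreb1 was called lower (-0.55 ± 0.068), and in the neural list Stmn2 (-1.61 ± 0.066).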
